A study of Homo sapiens with 16 samples.

Results

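The 37 genes described here belong to the unfolded protein response and the integrated stress response. They were taken by gene symbol from a list of 37 symbols. All 37 had 1 row in each of 2 expression tables, out of 17318 genes in experiment 1 and 18168 in experiment 2, with 16957 genes in both. Of the 37 genes, 22 formed the endoplasmic reticulum (ER) arm and 15 the ATF4 arm.

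The unfolded protein response is the reaction of a cell to misfolded protein in the ER. The sensors IRE1 (gene ERN1), ATF6 and PERK (gene EIF2AK3) lie in the ER membrane. Active IRE1 splices the XBP1 mRNA, and spliced XBP1 and cleaved ATF6 switch on genes for chaperones and for disposal of misfolded protein. Active PERK phosphorylates eIF2alpha, as do other kinases that sense amino acid shortage, haem shortage or double-stranded RNA, and this shared pathway is the integrated stress response. It lowers general protein synthesis while ATF4 mRNA is translated more, and ATF4 switches on genes for amino acid import, amino acid synthesis and tRNA charging. Several of the steps act on protein or splicing, which gene-level RNA values do not show. In glioblastoma, as in other tumours, both responses have been linked to hypoxia and nutrient shortage.

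The tumours were orthotopic xenografts of luciferase-expressing U87 cells, an established human glioblastoma line labelled WT in genotype, in the brains of nude mice. Mice received exosomes of mesenchymal stromal cells (MSC) loaded with siRNA, and tumours were taken at euthanasia. The Myc1 group (3 mice) received siRNA 1 against human Myc, and its control Scr1 (4 mice) received scramble 1. In experiment 2 the Myc2 group (5 mice) received siRNA 2 against human Myc, and its control Scr2 (4 mice) received scramble 2. In experiment 1 doses of 1000000000 exosomes in 100 µl were given by retro-orbital injection every other day from day 28 after implantation. For experiment 2 the dosing is not given in the sources used here. All 4 groups thus shared the cell line, the host and the carrier, and each library came from its own mouse. No age is given for the mice in the sources used here, and nude mice lack mature T cells.

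Values are log2 CPM, read counts scaled to a common library total. They were deposited on a nearly common distribution within each table, so levels are compared only within an experiment. Library size, estimated from the spacing of the lowest values, was 15.2 to 23.98 M reads in experiment 1 except for 3.38 M in Scr1 replicate 3. It was 15.2 to 29.6 M in experiment 2 except for 10.5 M in Scr2 replicate 4. The estimate takes the lowest values as steps of 1 read, for which their slope on the log2 scale would be 1. That slope ran from 0.84 in Scr2 replicate 4 to 1.21 in Myc2 replicate 3, so the library sizes are approximate. On the first principal component of all genes, Scr1 replicate 4 stood apart in experiment 1, and Scr2 replicates 1 and 4 stood apart in experiment 2. MYC, the siRNA target, had 38.1, 26.5 and 14.3 CPM in Myc1 tumours, against 21.2, 30.2, 50.7 and 108 CPM in Scr1 tumours (log2 difference -0.83, exact two-sided permutation p = 0.314). It had 55.3, 57.5, 47.03, 72.1 and 42.3 CPM in libraries labelled Myc2, against 40.2, 35.3, 47.1 and 25.9 CPM in Scr2 libraries. In experiment 2 MYC was thus higher in the libraries labelled Myc2 (log2 difference 0.57, exact two-sided permutation p = 0.0397), which goes against that label, and every direction given below for experiment 2 carries this limit. The 5 U87 markers VIM, CD44, CHI3L1, TIMP1 and LGALS1 were present in every library. Their summed level was 8514 to 13356 CPM in Myc1 and 8941 to 11074 CPM in Scr1. It was 7394 to 8818 CPM in libraries labelled Myc2 and 8217 to 10920 CPM in Scr2.

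Promoters are shown because they carry the letters through which the arms are known to be switched on. RefSeq promoter windows (build GRCh38.p14), from 250 bases before to 50 bases after the transcription start, were found for 34 of the 37 genes (WARS under its current symbol WARS1), and none was matched for PDIA3, NUPR1 and SLC7A11. Where a gene had several windows, the one with most matches was taken. The ER stress response element (ERSE), bound by cleaved ATF6 with NF-Y, was searched on both strands as CCAAT and CCACG with any 9 bases between. It lay in 7 of 34 windows, those of HSPA5, HSP90B1, CALR, CANX, PDIA6, CRELD2 and XBP1, and in those of 0.0916% of all 27305 human genes with a window. All 7 belong to the ER arm (7 of 21 with a window), and 0 of 13 ATF4-arm windows held it. ERSE-II, searched on both strands as ATTGG and CCACG with any 1 base between, lay in 3 windows (SDF2L1, HYOU1 and HERPUD1) and in those of 0.0696% of all genes. The C/EBP-ATF response element, the amino acid response motif bound by ATF4 with C/EBP factors, was searched as TGATGNAA on both strands. It lay in 5 windows, those of HERPUD1, CEBPG, ASNS, SLC3A2 and CHAC1, and in those of 4.46% of all genes. These matches are descriptions of letters and show no binding.

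The 250 bases before the start are given 5′ to 3′ on the gene's strand for 4 genes with ERSE, for HERPUD1 with ERSE-II and the ATF4 motif, and for 2 amino acid response genes, with matched letters in capitals. HSPA5 lies at chr9:125241344-125241593 (minus strand), HSP90B1 at chr12:103930160-103930409 (plus strand), CRELD2 at chr22:49918384-49918633 (plus strand) and XBP1 at chr22:28800570-28800819 (minus strand). HERPUD1 lies at chr16:56931892-56932141 (plus strand), ASNS at chr7:97872409-97872658 (minus strand) and CHAC1 at chr15:40953221-40953470 (plus strand).
HSPA5: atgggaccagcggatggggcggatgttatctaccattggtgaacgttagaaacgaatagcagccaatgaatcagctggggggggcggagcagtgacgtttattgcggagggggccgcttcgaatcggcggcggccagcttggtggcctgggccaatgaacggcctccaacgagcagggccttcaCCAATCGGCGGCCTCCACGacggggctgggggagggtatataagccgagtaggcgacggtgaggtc
HSP90B1: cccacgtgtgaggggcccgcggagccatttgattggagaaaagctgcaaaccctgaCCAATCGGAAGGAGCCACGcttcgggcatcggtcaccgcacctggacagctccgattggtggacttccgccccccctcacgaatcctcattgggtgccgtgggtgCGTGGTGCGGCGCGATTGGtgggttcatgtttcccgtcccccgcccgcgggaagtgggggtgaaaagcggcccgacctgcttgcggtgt
CRELD2: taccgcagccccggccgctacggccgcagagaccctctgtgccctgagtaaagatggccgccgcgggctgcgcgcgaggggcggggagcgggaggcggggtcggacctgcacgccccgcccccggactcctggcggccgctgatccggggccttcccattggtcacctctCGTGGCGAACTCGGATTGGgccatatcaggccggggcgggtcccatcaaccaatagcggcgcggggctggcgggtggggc
XBP1: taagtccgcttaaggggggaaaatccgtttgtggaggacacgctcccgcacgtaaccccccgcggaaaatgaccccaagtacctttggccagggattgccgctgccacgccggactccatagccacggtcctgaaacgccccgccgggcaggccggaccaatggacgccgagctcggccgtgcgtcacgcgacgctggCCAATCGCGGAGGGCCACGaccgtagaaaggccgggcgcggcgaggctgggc
HERPUD1: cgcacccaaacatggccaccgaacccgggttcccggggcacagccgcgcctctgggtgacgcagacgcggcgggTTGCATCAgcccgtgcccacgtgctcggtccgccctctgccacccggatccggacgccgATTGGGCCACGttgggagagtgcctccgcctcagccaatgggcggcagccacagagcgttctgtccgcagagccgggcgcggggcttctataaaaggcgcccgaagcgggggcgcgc
ASNS: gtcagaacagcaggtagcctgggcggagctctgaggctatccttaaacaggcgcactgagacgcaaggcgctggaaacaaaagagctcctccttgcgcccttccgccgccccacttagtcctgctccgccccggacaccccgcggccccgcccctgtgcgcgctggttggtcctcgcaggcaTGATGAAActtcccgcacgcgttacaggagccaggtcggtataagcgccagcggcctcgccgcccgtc
CHAC1: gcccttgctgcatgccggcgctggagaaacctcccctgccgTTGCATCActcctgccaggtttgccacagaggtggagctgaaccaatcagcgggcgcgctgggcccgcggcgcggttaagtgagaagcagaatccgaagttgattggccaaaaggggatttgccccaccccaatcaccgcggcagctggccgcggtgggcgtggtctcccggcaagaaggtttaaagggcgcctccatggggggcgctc
HSP90B1 held ERSE at 2 places, one on each strand. HERPUD1 held ERSE-II on the printed strand and the ATF4 motif on the other, with no overlap between them. Counting the last base before the start as -1, the ATF4 motif lay at -68 to -61 in ASNS and at -209 to -202 in CHAC1.

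All 37 genes passed the filter on low values in both experiments, and 0 of 37 passed limma's test at an adjusted p of 0.05 in either experiment. Across all genes this test called 0% of 13933 genes in experiment 1 and 0% of 14208 in experiment 2. The smallest adjusted p of any gene was 0.0916 for siRNA 1 and 0.370 for siRNA 2 by limma. At an unadjusted limma p under 0.05, 1 of 37 genes was higher and 0 were lower in Myc1, where 1.96% of all genes were higher and 1.52% lower (3.48% in either direction). In libraries labelled Myc2, 5 of 37 genes were higher and 0 lower, where 7.00% of all genes were higher and 6.36% lower. The 5 genes are 13.5% of 37, beside 13.4% of all genes called in either direction. The ER arm held 4 of these 5 genes and its median log2 difference was 0.33, beside 0.00403 for the ATF4 arm. This order of the arms depended on the libraries, since without Scr2 replicates 1 and 4 the medians were 0.19 (ER arm) and 0.33 (ATF4 arm).

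**Figure D1:**
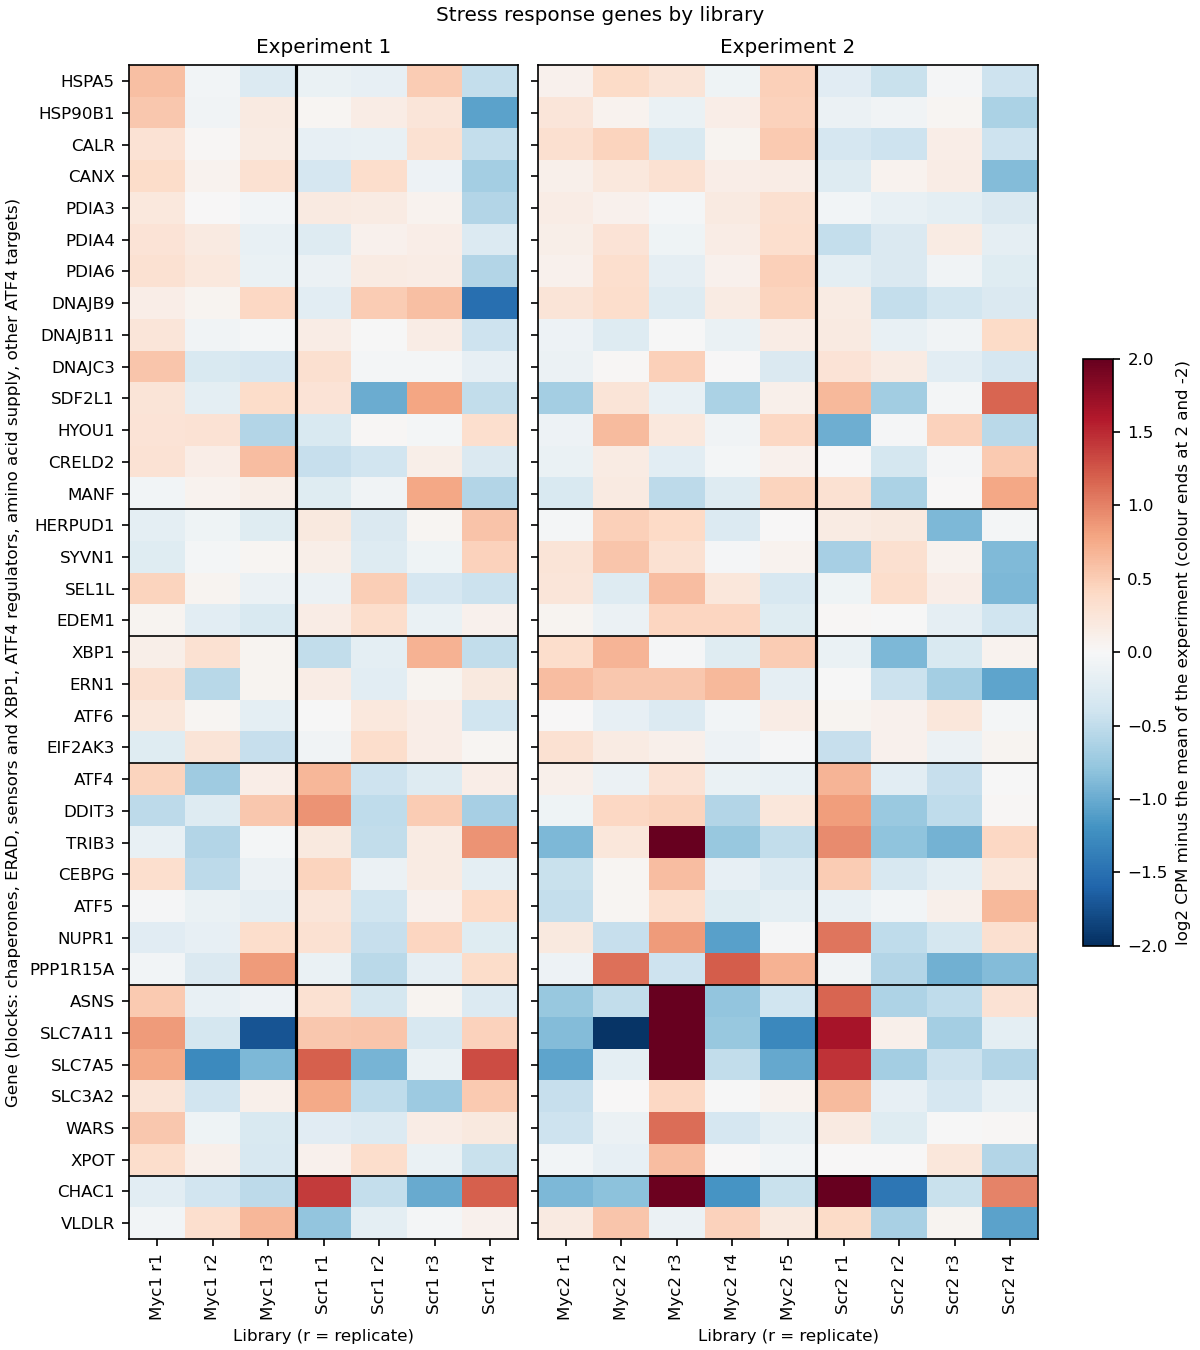
Level of each of the 37 genes in each library, as log2 CPM minus the gene's mean in that experiment, with experiment 1 on the left and experiment 2 on the right and rows grouped by arm. ASNS, SLC7A11, SLC7A5 and TRIB3 stand out in Myc2 replicate 3 and less so in Scr2 replicate 1, and CHAC1 stands out in both, with its highest level in Scr2 replicate 1.

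In the ER arm, the median log2 difference over the 22 genes was 0.33 in libraries labelled Myc2 relative to Scr2, with 17 of 22 genes above 0, beside a median of -0.02 over all genes tested. Relative to Scr1, Myc1 tumours had a median of 0.12, with 15 of 22 genes above 0, beside -0.00283 over all genes. The mean log2 level of the 22 genes was 6.47 to 6.68 in libraries labelled Myc2, against 6.25 to 6.37 in Scr2, so the groups did not overlap in this mean. Taken singly, 1 of the 22 genes was higher without overlap (4.55%, beside 1.40% of all genes) and 0 were lower. The overlap of such means was not compared with that of other gene sets. The mean of the 14 chaperones and folding enzymes did overlap (6.86 to 7.20, against 6.64 to 6.90 in Scr2). So did the mean of the 4 genes of ER-associated degradation (6.11 to 6.67, against 5.68 to 6.45). The mean of the sensors with XBP1 did not overlap (5.16 to 5.42, against 4.81 to 4.96). Taken singly, however, 0 of these 4 genes lacked overlap, and ATF6 was lower (log2 difference -0.16). Over the 22 genes the mean was 6.39 to 6.64 in Myc1, against 6.09 to 6.61 in Scr1, with overlap. Without Scr2 replicates 1 and 4, the libraries that stood apart, the median of experiment 2 was 0.19. Without Scr1 replicate 4 the median of experiment 1 was 0.00843, and without Myc1 replicate 1 it was 0.04. Scr1 replicate 4 had the lowest level of 12 of the 22 genes, and Myc1 replicate 1 the highest level of 10. In bulk tumour RNA, a smaller share of cells and less RNA per cell cannot be told apart.

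No row of either table carried a mouse gene ID (0 of all rows), and markers of host brain cells were low or incomplete. Of 5 oligodendrocyte markers only MBP was analysed here, at or under 0.889 CPM in libraries labelled Myc2 and 1.27 CPM in Scr2. Of 6 astrocyte markers 5 were analysed, which glioma cells can also express. Their sum was 204 to 841 CPM in libraries labelled Myc2, against 169 to 488 CPM in Scr2, and 324 to 402 CPM in Myc1, against 143 to 401 CPM in Scr1. The sum of 3 of 5 neuronal markers was 5.15 to 15.6 CPM in libraries labelled Myc2, against 8.09 to 19.5 CPM in Scr2, and 14.7 to 15.6 CPM in Myc1, against 8.39 to 15.1 CPM in Scr1. Of the 6 microglia and macrophage markers, 3 were analysed in experiment 2 (178 to 277 CPM in libraries labelled Myc2, against 163 to 268 CPM in Scr2). In experiment 1, 2 were analysed (332 to 403 CPM in Myc1, against 246 to 347 CPM in Scr1). Endothelial markers summed to at most 10.9 CPM in libraries labelled Myc2, against 5.08 CPM in Scr2, and to 2.17 CPM in Myc1, against 2.03 CPM in Scr1. The part of these markers in the results was not tested.

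Chaperones and folding enzymes formed the largest list, with 14 genes. In libraries labelled Myc2, 10 of 14 were above 0 (median 0.35), beside 48.2% of all genes tested. An unadjusted limma p under 0.05 was reached by 2 of 14 (14.3%, beside 13.4% of all genes), and 0 passed the adjusted test. In Myc1, 12 of 14 were above 0 (median 0.20), beside 49.5% of all genes tested. There 1 of 14 (7.14%, beside 3.48% of all genes) reached an unadjusted limma p under 0.05.

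HSPA5 encodes BiP, the ER Hsp70 that holds the stress sensors inactive and folds incoming proteins. It had 223, 272, 250.2, 197 and 290.2 CPM in libraries labelled Myc2, against 179, 154, 205 and 158 CPM in Scr2. Scr2 replicate 3 lay above Myc2 replicate 4, and the other Scr2 libraries lay below every library labelled Myc2. The log2 difference was 0.50 ± 0.17 (SE; unadjusted p = 0.0121, adjusted p = 0.370, limma). In experiment 1, HSPA5 had 358, 227 and 195 CPM in Myc1, against 215, 212, 338 and 169 CPM in Scr1. The groups overlapped widely, since Scr1 replicate 3 was nearly as high as Myc1 replicate 1 (log2 difference 0.16 ± 0.27, SE). That sign depended on Myc1 replicate 1, without which the difference was -0.10.

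CALR encodes calreticulin, a calcium-binding lectin chaperone for glycoproteins. It had 1068, 1164, 693, 886 and 1234 CPM in libraries labelled Myc2, against 679, 639.7, 938 and 639.7 CPM in Scr2. Myc2 replicate 3 lay near the 3 lower Scr2 libraries, and Scr2 replicate 3 lay above the others of its group. Its log2 difference was 0.47 ± 0.21 (SE; unadjusted p = 0.0469, adjusted p = 0.370, limma). Without Scr2 replicates 1 and 4 it was 0.35, at an unadjusted limma p of 0.194. In Myc1 the levels were 1346, 1126 and 1231 CPM, against 982.7, 998, 1367 and 797 CPM in Scr1, and the groups overlapped.

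PDIA3 encodes ERp57, the disulfide isomerase that works with calreticulin and calnexin. It was the 1 gene of 37 whose levels did not overlap in experiment 2, beside 1.40% of all genes that were higher without overlap and 1.61% that were lower. It had 434, 417, 385, 446 and 491 CPM in libraries labelled Myc2, against 380.2, 353, 342 and 321 CPM in Scr2. Its log2 difference was 0.31 ± 0.14 (SE; unadjusted p = 0.0501, adjusted p = 0.370, limma). In Myc1 it had 494, 427 and 410.5 CPM, against 485, 480.4, 450.3 and 283 CPM in Scr1, where Scr1 replicate 4 was far below the other libraries.

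Further chaperones and foldases with positive differences of similar size in experiment 2 were HSP90B1 (the ER Hsp90, GRP94; 0.35), CANX (the membrane lectin chaperone calnexin; 0.40), PDIA4 (0.35), PDIA6 (0.36), DNAJB9 (a BiP co-chaperone; 0.43) and HYOU1 (an ER Hsp110 and exchange factor of BiP; 0.48). None of these log2 differences reached an unadjusted limma p under 0.05. SDF2L1, DNAJB11, CRELD2 and MANF, which encode ER-resident partners or regulators of folding, had log2 differences of -0.49, -0.16, -0.06 and -0.20. All 4 had their highest level of experiment 2 in Scr2 replicate 4, one of the libraries that stood apart. For SDF2L1 that level was 23.9 CPM, against 6.61 to 12.8 CPM in libraries labelled Myc2. With 1 library left out, the SDF2L1 difference ranged from -0.82 to -0.19. Scr2 replicate 4 also had the lowest level of 8 of the 22 ER-arm genes, as many as Scr2 replicate 2. DNAJC3, which encodes p58IPK, an inhibitor of PERK and a BiP co-chaperone, differed by 0.05 in experiment 2 and by -0.05 in experiment 1.

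**Figure D2:**
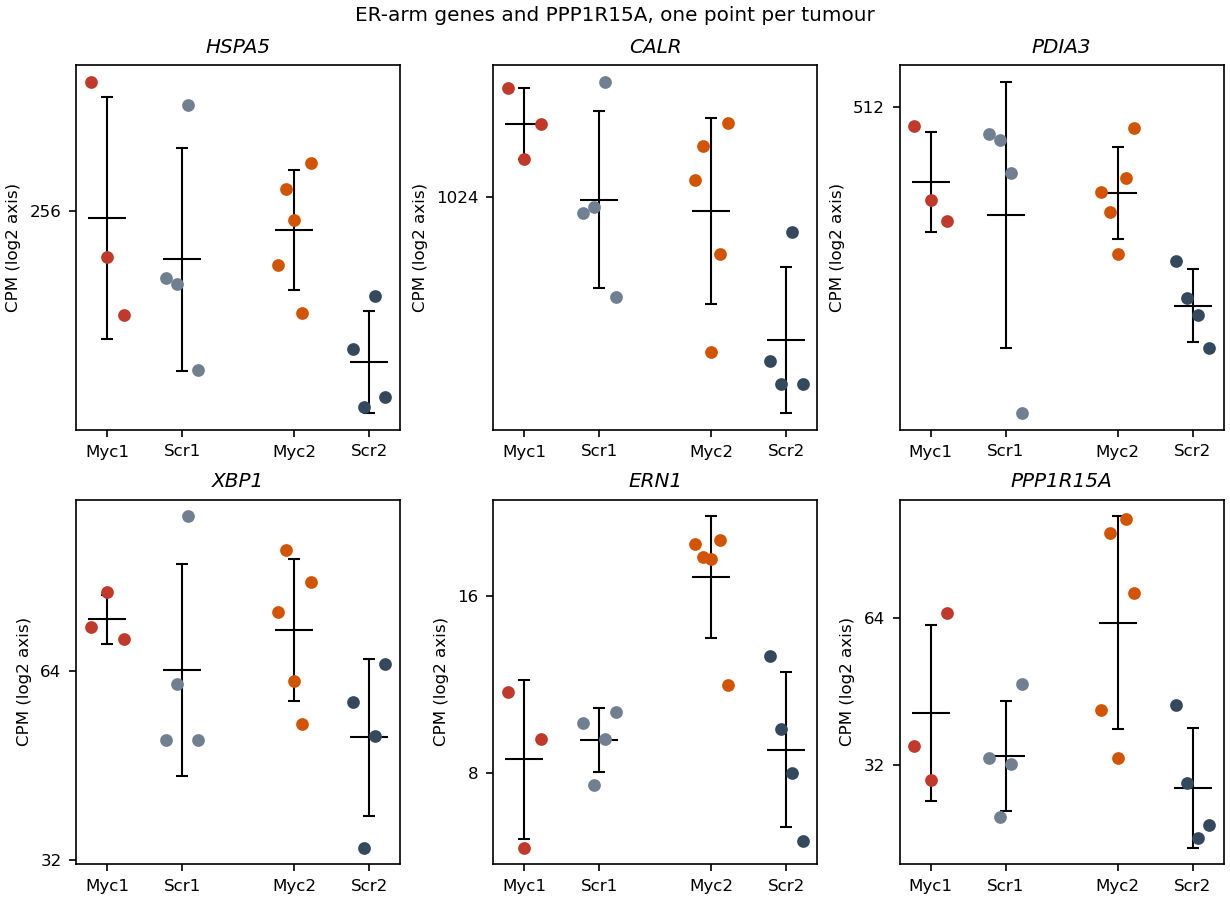
CPM (log2 axis) of 5 ER-arm genes and PPP1R15A in each tumour, 1 point per library, with the mean of log2 values as a horizontal line and 1 SD as bars. Within experiment 2, ERN1 lay at 11.3 to 19.9 CPM in libraries labelled Myc2 and at 6.14 to 12.7 CPM in Scr2, and in experiment 1 HSPA5, XBP1 and ERN1 overlapped between Myc1 and Scr1.

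CRELD2, which encodes an ER protein with disulfide isomerase activity induced by ER stress, was the 1 gene at an unadjusted limma p under 0.05 in experiment 1. It had 44.8, 40.1 and 56.2 CPM in Myc1 tumours, against 26.8, 28.05, 39.8 and 30.01 CPM in Scr1 tumours. Every Myc1 level lay above every Scr1 level, by a small margin between Myc1 replicate 2 and Scr1 replicate 3. Across all genes, 1.94% were higher and 2.27% lower without overlap in experiment 1. The log2 difference was 0.60 ± 0.24 (SE; unadjusted p = 0.0257, adjusted p = 0.996, limma). In experiment 2 it had 31.004, 37.8, 29.3, 32.8 and 35.9 CPM in libraries labelled Myc2, against 33.96, 26.5, 33.2 and 48.8 CPM in Scr2, with Scr2 replicate 4 the highest. The unadjusted limma p of CRELD2 was 0.0529 with Myc1 replicate 1 left out, 0.125 with Myc1 replicate 3, 0.0640 with Scr1 replicate 1 and 0.0507 with Scr1 replicate 2 left out. With Myc1 replicate 3 or Scr1 replicate 1 left out, 0 of the 37 genes lay under 0.05, beside 1.27% and 3.15% of all genes. With Scr1 replicate 2 left out, CANX did in place of CRELD2 (beside 5.67% of all genes). With Myc1 replicate 1 left out 3 genes did (VLDLR higher, SLC7A5 and SLC7A11 lower; 3.60% of all genes), and likewise 3 with the shallow Scr1 replicate 3 left out (CRELD2 and XBP1 higher, CHAC1 lower; 6.92% of all genes).

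The 4 genes of ER-associated degradation encode parts of the machinery that exports misfolded proteins to the proteasome. SYVN1 is the ubiquitin ligase HRD1, SEL1L its adaptor, HERPUD1 a membrane partner of the ligase and EDEM1 a lectin that recognises misfolded glycoproteins. All 4 were above 0 in libraries labelled Myc2 (log2 differences 0.23 to 0.52, median 0.26), with SYVN1 at 0.52 and an unadjusted limma p of 0.0644. SYVN1 had 36.3, 44.6, 37.5, 29.97 and 31.9 CPM in libraries labelled Myc2, against 19.3, 38.1, 31.8 and 16.5 CPM in Scr2. The low levels of Scr2 were in replicates 1 and 4, the libraries that stood apart. In Myc1, 3 of 4 were below 0 (median -0.20), with SEL1L at 0.22. None of the 4 reached an unadjusted limma p under 0.05 in either experiment.

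Of the sensors, ERN1 had the smallest p of all 37 genes in experiment 2. It encodes IRE1alpha, the kinase and endoribonuclease that splices XBP1 mRNA. It had 19.6, 18.6, 18.5, 19.9 and 11.3 CPM in libraries labelled Myc2, against 12.7, 9.52, 8.01 and 6.14 CPM in Scr2. Replicates 1 to 4 labelled Myc2 lay above every Scr2 library and replicate 5 lay within the Scr2 range. The log2 difference was 0.97 ± 0.26 (SE; unadjusted p = 0.00287, adjusted p = 0.370, limma). In experiment 1 it had 10.99, 5.98 and 9.16 CPM in Myc1, against 9.75, 7.65, 9.15 and 10.2 CPM in Scr1, a log2 difference of -0.11 ± 0.31 (SE).

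XBP1, the transcription factor downstream of IRE1, had 79.5, 99.7, 61.7, 52.8 and 88.8 CPM in libraries labelled Myc2, against 57.1, 33.5, 50.5 and 65.6 CPM in Scr2. The ranges overlapped, with Myc2 replicates 3 and 4 below Scr2 replicate 4. The log2 difference was 0.57 ± 0.24 (SE; unadjusted p = 0.0370, adjusted p = 0.370, limma), and 0.86 without Scr2 replicates 1 and 4. In experiment 1, XBP1 had 75.2, 85.6 and 72.05 CPM in Myc1, against 49.7, 61.1, 113 and 49.8 CPM in Scr1. The highest of these levels was in the shallow Scr1 replicate 3, and the log2 difference of 0.27 was 0.54 without that library.

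ATF6, which is cleaved to an active transcription factor, had 69.3, 61.6, 56.96, 66.9 and 76.6 CPM in libraries labelled Myc2, against 72.1, 73.7, 81.2 and 67.7 CPM in Scr2, a log2 difference of -0.16 ± 0.14 (SE). In Myc1 it had 82.2, 72.8 and 61.8 CPM, against 70.3, 81.3, 77.4 and 53.4 CPM in Scr1 (0.04 ± 0.22, SE). EIF2AK3, the gene of the PERK kinase, had 30.8, 27.9, 26.9, 23.3 and 24.5 CPM in libraries labelled Myc2, against 18.1, 26.5, 23.1 and 26.04 CPM in Scr2 (0.20 ± 0.17, SE). In Myc1 it had 14.9, 21.1 and 12.8 CPM, against 16.9, 22.5, 19.3 and 18.1 CPM in Scr1 (-0.26 ± 0.27, SE). Neither gene reached an unadjusted limma p under 0.05 in either experiment.

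In the ATF4 arm, the median log2 difference over the 15 genes was 0.00403 in libraries labelled Myc2, with 8 of 15 genes above 0, and -0.07 in Myc1, with 5 of 15 above 0. Only PPP1R15A reached an unadjusted limma p under 0.05, in experiment 2, and 0 passed the adjusted test. The spread between libraries of a group was wider than in the ER arm, with a median pooled SD of 0.56 (ATF4 arm), against 0.28 (ER arm), in experiment 2 and of 0.48, against 0.31, in experiment 1. Over all genes tested the median pooled SD was 0.38 in experiment 2 and 0.37 in experiment 1.

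PPP1R15A encodes GADD34, the phosphatase subunit that removes the phosphate from eIF2alpha and so ends the response. It had 41.4, 95.2, 33.1, 102 and 71.8 CPM in libraries labelled Myc2, against 42.4, 29.4, 22.6 and 24.1 CPM in Scr2. Replicates 2, 4 and 5 labelled Myc2 lay above every Scr2 library, and replicates 1 and 3 lay within the Scr2 range. The log2 difference was 1.12 ± 0.34 (SE; unadjusted p = 0.00722, adjusted p = 0.370, limma). In experiment 1 it had 34.9, 29.8 and 65.4 CPM in Myc1, against 33.02, 24.99, 32.1 and 46.7 CPM in Scr1 (0.29 ± 0.30, SE), and the difference was -0.05 without Myc1 replicate 3.

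ATF4, the transcription factor at the centre of this arm, had 200.3, 172, 229, 171 and 169 CPM in libraries labelled Myc2, against 298, 162, 136 and 187 CPM in Scr2. Scr2 replicate 1 was the highest and the groups overlapped, with a log2 difference of -0.00313 ± 0.22 (SE). Without Scr2 replicates 1 and 4 the difference was 0.33. In Myc1 it had 291, 130.0 and 235 CPM, against 336, 159.7, 178 and 235 CPM in Scr1 (-0.07 ± 0.31, SE). DDIT3 encodes CHOP, a transcription factor linked to cell death under prolonged stress. It had 34.8, 49.3, 50.1, 24.5 and 43.1 CPM in libraries labelled Myc2, against 65.9, 21.99, 25.9 and 37.5 CPM in Scr2 (0.18 ± 0.32, SE), and Scr2 replicate 1 was again the highest. Without Scr2 replicates 1 and 4 the difference was 0.71, at an unadjusted limma p of 0.0285. In Myc1 it had 26.1, 31.4 and 54.8 CPM, against 69.96, 26.4, 53.5 and 23.6 CPM in Scr1 (-0.14 ± 0.39, SE).

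Amino acid supply genes varied widely between libraries of the same group. ASNS makes asparagine, SLC7A11 imports cystine, SLC7A5 imports large neutral amino acids, SLC3A2 is the shared heavy chain of both transporters, WARS charges tRNA with tryptophan and XPOT exports tRNA from the nucleus. The list had a median log2 difference of 0.01 in libraries labelled Myc2 and 0.03 in Myc1, and its median pooled SD was 0.78 in experiment 2 and 0.47 in experiment 1. None of the 6 reached an unadjusted limma p under 0.05 in either experiment.

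SLC7A11 had 1.195, 0.5601, 35.1, 1.298 and 0.899 CPM in libraries labelled Myc2, against 6.86, 2.35, 1.37 and 1.92 CPM in Scr2. The level in Myc2 replicate 3 was 26.3 times the median of the other 8 libraries. SLC7A5 had 7.79, 14.1, 134, 11.5 and 7.96 CPM in libraries labelled Myc2, against 43.96, 10.1, 12.1 and 10.8 CPM in Scr2, so that Myc2 replicate 3 was 11.998 times that median and Scr2 replicate 1 was 3.95 times the median of the libraries other than itself. ASNS had 16.7, 19.95, 122, 16.4 and 21.4 CPM in libraries labelled Myc2, against 63.3, 18.4, 19.7 and 34.4 CPM in Scr2. Here the same pair of libraries was highest, at 6.15 and 3.19 times the median of the other 8. The remaining 4 libraries labelled Myc2 and 3 Scr2 libraries had 16.4 to 34.4 CPM.

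TRIB3, a pseudokinase that restrains ATF4, had 5.34, 11.6, 49.6, 5.87 and 7.05 CPM in libraries labelled Myc2, against 19.1, 5.64, 5.12 and 13.1 CPM in Scr2. CHAC1, an enzyme that degrades glutathione, had 0.929, 0.974, 6.7001, 0.758 and 1.26 CPM in libraries labelled Myc2, against 8.45, 0.635, 1.27 and 3.44 CPM in Scr2. Both were high in Myc2 replicate 3 and in Scr2 replicate 1, and several CHAC1 levels lay near or under 1 CPM. WARS had 105, 128, 301, 109.5 and 121 CPM in libraries labelled Myc2, against 157, 118, 139 and 141 CPM in Scr2, with Myc2 replicate 3 the highest. In all, Myc2 replicate 3 had the highest level of 7 of 15 ATF4-arm genes and of 5 of 6 amino acid supply genes, and Scr2 replicate 1 of 5 of 15. PPP1R15A and VLDLR did not share the pattern, since their levels in Myc2 replicate 3 were 0.790 and 0.809 times the median of the other 8 libraries. In Scr2 replicate 1, ATF5 and XPOT of the same arm were at 0.915 and 1.03 times the median of the other 8 libraries. ATF4 itself was 1.34 times that median in Myc2 replicate 3 and 1.74 times in Scr2 replicate 1.

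**Figure D3:**
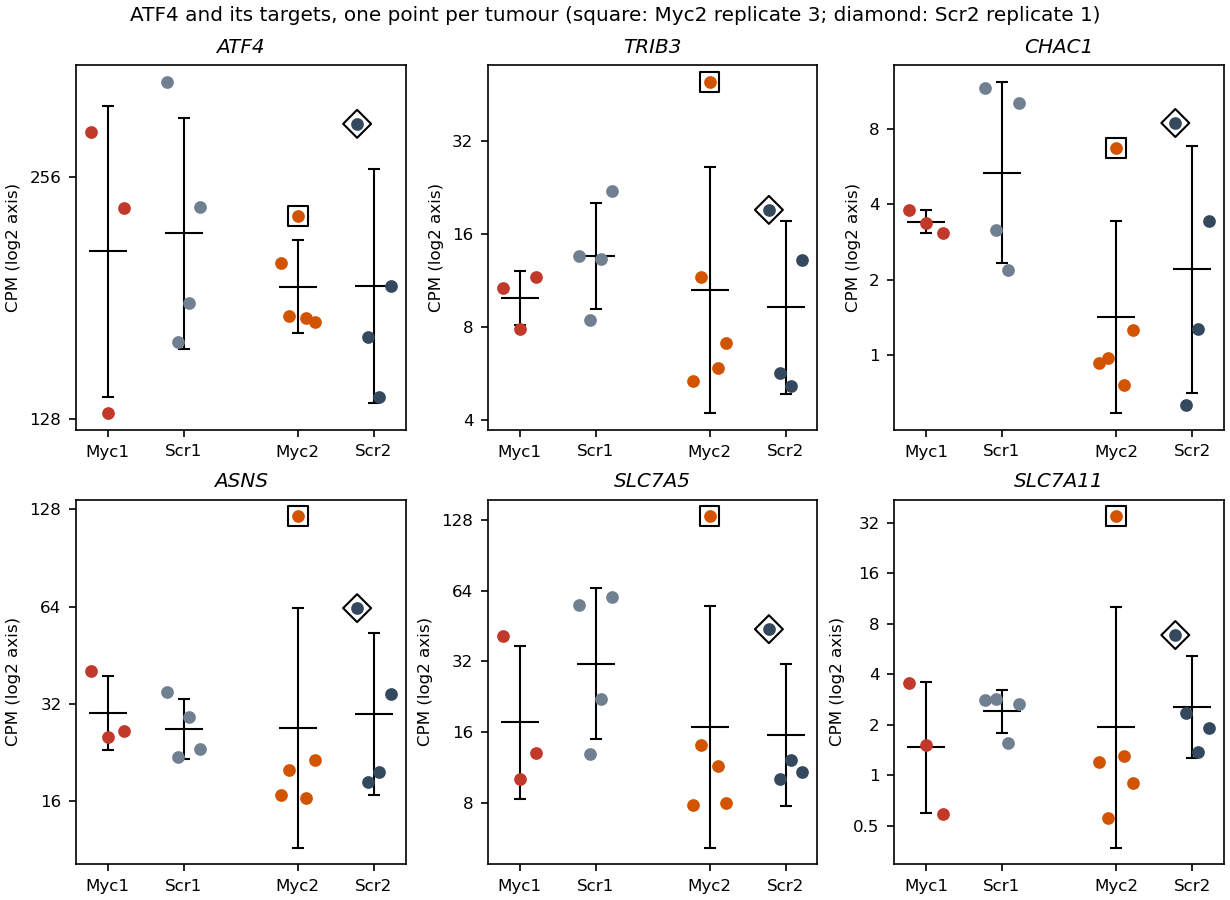
CPM (log2 axis) of ATF4-arm genes in each tumour, 1 point per library, with the mean of log2 values as a horizontal line and 1 SD as bars. Myc2 replicate 3 (square) and Scr2 replicate 1 (diamond) lie above the other libraries of their groups for SLC7A11, SLC7A5, ASNS and TRIB3.

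Myc2 replicate 3 had the largest estimated library of the series, at 29.6 M reads, and did not stand apart on the first principal component of all genes. Its mean level over the 6 amino acid supply genes was 7.22 on the log2 scale, against 4.74 to 4.94 in the other libraries labelled Myc2. Scr2 replicate 1 had 6.19, against 5.05 to 5.14 in the other Scr2 libraries. Without Myc2 replicate 3 the ATF4-arm median of experiment 2 was -0.27, without Scr2 replicate 1 it was 0.22 and without Scr2 replicates 1 and 4 it was 0.33.

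In experiment 1 the same list was highest in Myc1 replicate 1 and in Scr1 replicates 1 and 4, with mean levels of 5.96, 5.85 and 5.70, against 4.87 to 5.22 in the remaining 4 libraries. SLC7A5 had 41.2, 10.1 and 13.1 CPM in Myc1, against 55.7, 12.9, 22.2 and 60.03 CPM in Scr1. SLC7A11 had 3.53, 1.52 and 0.589 CPM in Myc1, against 2.82, 2.87, 1.56 and 2.67 CPM in Scr1. CHAC1 had 3.81, 3.38 and 3.08 CPM in Myc1, against 11.7, 3.17, 2.19 and 10.1 CPM in Scr1, with Scr1 replicates 1 and 4 the highest. These 3 genes had log2 differences of -0.83 ± 0.67, -0.71 ± 0.56 and -0.65 ± 0.54 (SE), none of which reached an unadjusted limma p under 0.05. VLDLR, a lipoprotein receptor induced through PERK and ATF4, had 19.7, 25.8 and 32.3 CPM in Myc1, against 11.9, 17.96, 19.9 and 21.7 CPM in Scr1. It had 24.8, 32.03, 20.1, 30.1 and 24.9 CPM in libraries labelled Myc2, against 28.5, 13.9, 22.6 and 10.4 CPM in Scr2. The log2 differences were 0.55 ± 0.29 and 0.58 ± 0.29 (SE), with overlap in each experiment.

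**Figure D4:**
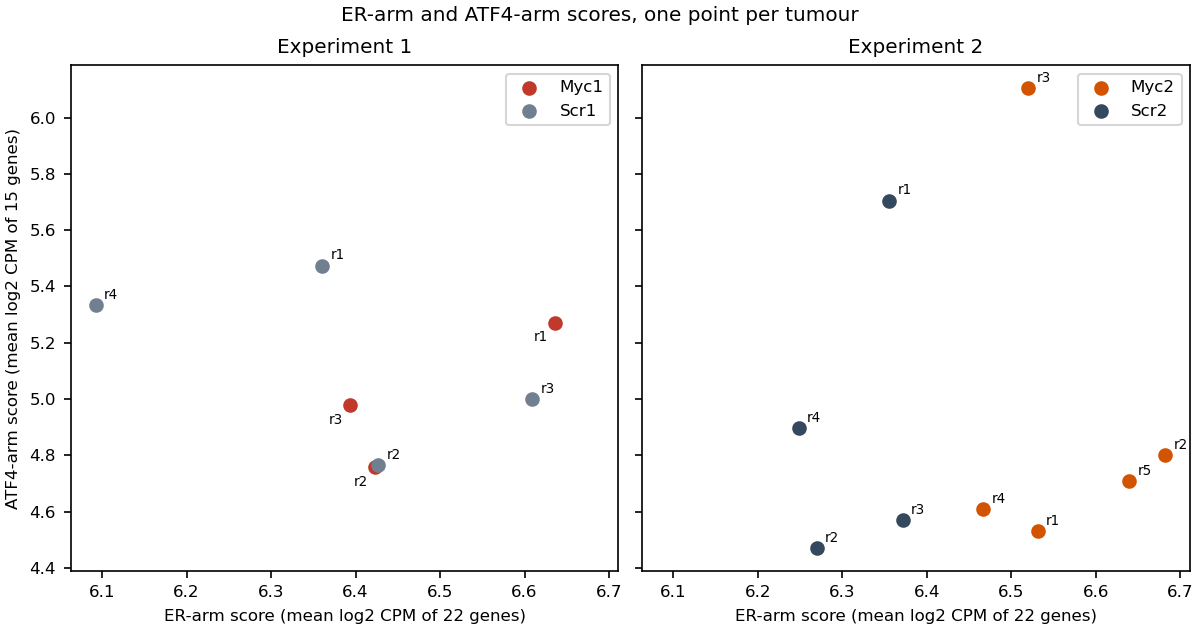
Mean log2 CPM of the 22 ER-arm genes (horizontal axis) and of the 15 ATF4-arm genes (vertical axis), 1 point per library, r being the replicate, with each experiment read within its own panel. In experiment 2 the libraries labelled Myc2 lie at 6.47 to 6.68 on the ER axis and Scr2 at 6.25 to 6.37, whereas Myc2 replicate 3 and Scr2 replicate 1 lie at 6.10 and 5.71 on the ATF4 axis.

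The effects of the 2 siRNAs were compared in a joint fit, each taken within its own experiment. Each siRNA was used only in its own experiment, with its own scramble. A difference between the siRNAs and a difference between the experiments therefore cannot be told apart. This comparison takes experiment 2 in its labelled direction, which MYC goes against, and its genes, signs and count hold only for that direction. Of the 37 genes, 2 reached an unadjusted limma p under 0.05 and 0 passed the adjusted test, where 4.16% of 14891 genes had a larger effect of siRNA 1 and 4.58% a smaller one at that p, and 0% passed the adjusted test. ERN1 had a log2 difference of -0.11 in Myc1 and 0.97 in libraries labelled Myc2, a difference (siRNA 1 minus siRNA 2) of -1.09 ± 0.39 (SE; unadjusted p = 0.0114, adjusted p = 0.532, limma). CRELD2 had 0.60 in Myc1 and -0.06 in libraries labelled Myc2, a difference of 0.66 ± 0.29 (SE; unadjusted p = 0.0345, adjusted p = 0.532, limma). The count was 1 (2.70% of 37), ERN1, without Scr1 replicate 1, Scr1 replicate 2, Myc2 replicate 1 or Scr2 replicate 4. Of all genes, 10.3%, 9.10%, 7.52% and 3.94% reached that p in these fits. The count stayed 2 without Myc1 replicate 3 or Myc2 replicate 3 (beside 4.21% and 8.52% of all genes), but with PPP1R15A in place of CRELD2. The unadjusted limma p of CRELD2 was 0.109 and 0.0556 there. EDEM1 joined ERN1 and CRELD2 when Myc1 replicate 1, Scr1 replicate 3 or Myc2 replicate 5 was left out, as did EIF2AK3 for Myc1 replicate 2 and SYVN1 for Scr2 replicate 2. These counts of 3 (8.11% of 37) stood beside 6.77%, 10.7%, 10.2%, 10.1% and 19.8% of all genes, in that order of libraries.

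**Figure D5:**
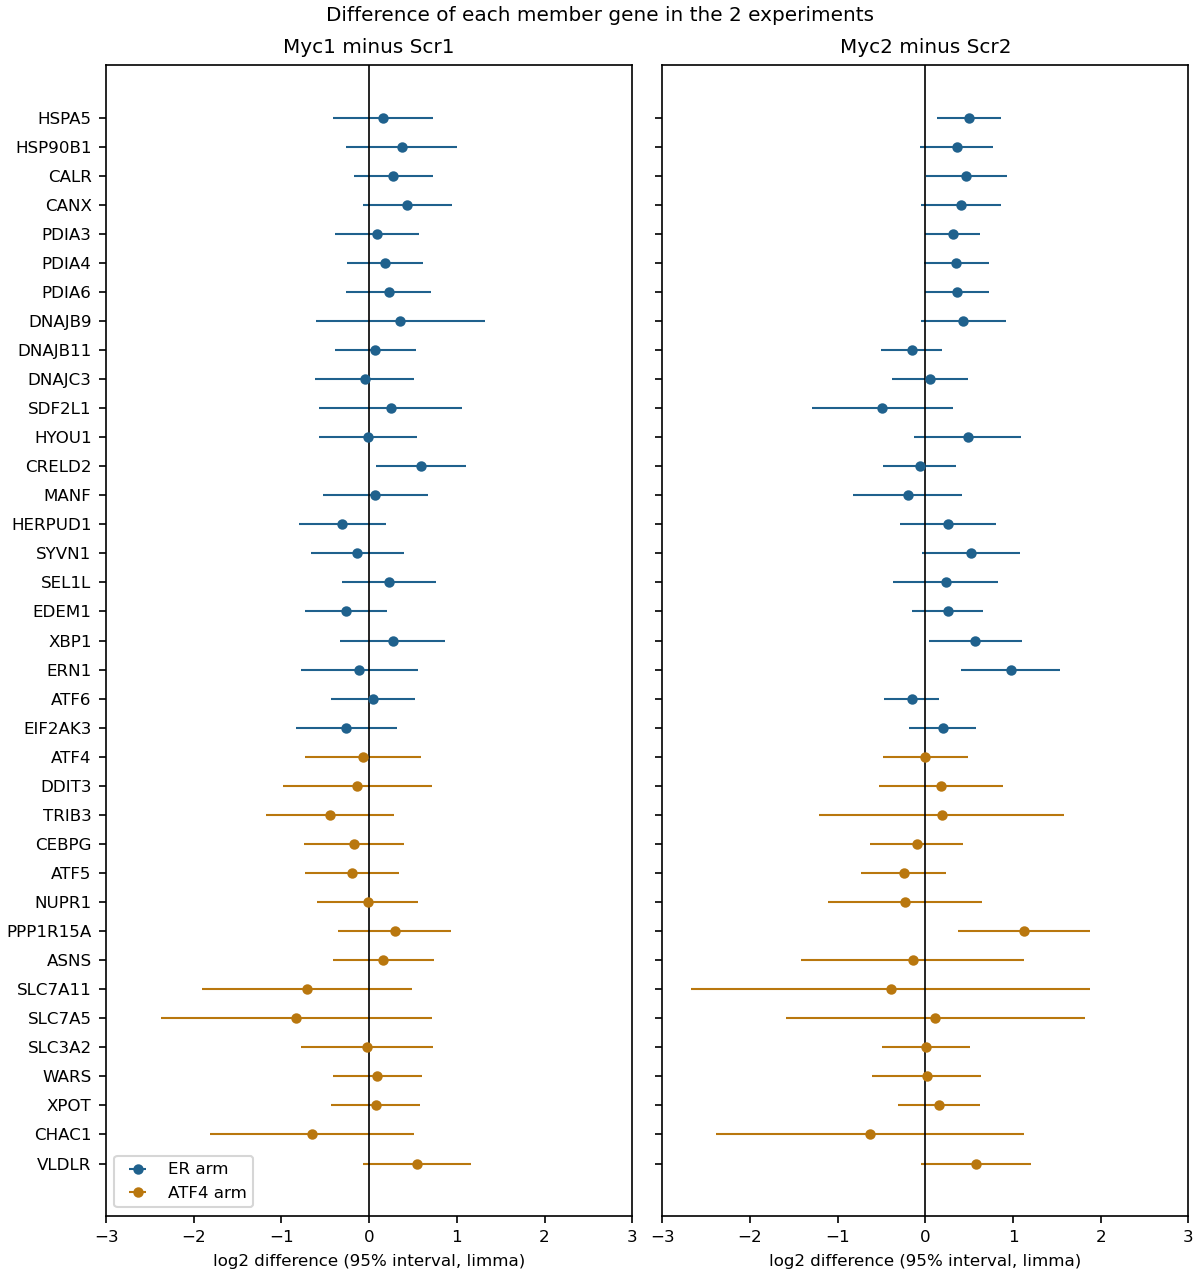
Log2 difference of each of the 37 genes with its 95% interval from limma, Myc1 minus Scr1 on the left and Myc2 minus Scr2 on the right. ERN1 (0.97) and PPP1R15A (1.12) lie furthest to the right among the Myc2 minus Scr2 differences, and SLC7A11, SLC7A5 and CHAC1 have the widest intervals.

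Across the alternative settings, HSPA5, ERN1 and PPP1R15A reached an unadjusted limma p under 0.05 in experiment 2 in every one, while XBP1 and CALR did not. The number of genes at that p was 3 without Myc2 replicate 1, 2 or 5, in each case HSPA5, PPP1R15A and ERN1. Those 3 are 8.11% of 37, beside 8.80%, 7.18% and 12.9% of all genes in these fits. The number was 6 (16.2%) without Scr2 replicate 1 (beside 6.30% of all genes) and without Scr2 replicate 2 (beside 27.2%). It was also 6 without Scr2 replicates 1 and 4 together (beside 3.48%), with array weights (beside 7.73%) and with median centring (beside 13.4%). It was 4 (10.8%) without Scr2 replicate 4 or Myc2 replicate 4, beside 4.997% and 9.65% of all genes. It was 9 without Scr2 replicate 3 (24.3%, beside 19.3% of all genes) and 10 without Myc2 replicate 3 (27.03%, beside 13.4% of all genes), where in the second case DNAJB9, PDIA3, PDIA4 and PDIA6 joined the 5 genes as higher and SLC7A11 as lower.

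Other genes of the pathways were read from 2 lists that hold none of the 37 and were, like the 37, drawn up with earlier results of these data known. The wider ER list has 59 symbols, for ER oxidation, translocation, export and degradation, of which 53 were tested in each experiment. In libraries labelled Myc2, 2 were higher and 2 lower at an unadjusted limma p under 0.05 (7.55% of 53, beside 13.4% of all genes), with 27 of 53 above 0 (median 0.02). Higher were FKBP11, an ER prolyl isomerase (0.68 ± 0.29, SE), and P4HB, protein disulfide isomerase (0.38 ± 0.17, SE). P4HB had 813 to 1125 CPM in libraries labelled Myc2, against 588 to 806 CPM in Scr2, without overlap. Lower were KIAA1324 (-0.84 ± 0.32, SE) and SPCS1, a signal peptidase subunit (-0.54 ± 0.22, SE). The count of 4 was 0 without Myc2 replicate 1 or Scr2 replicate 4, beside 8.80% and 4.997% of all genes. It was 1 without Myc2 replicate 2 (1.89%, beside 7.18% of all genes) and 2 without Myc2 replicate 4 (3.77%, beside 9.65%). It was 8 without Scr2 replicate 3 (15.1%, beside 19.3% of all genes) and 12 without Scr2 replicate 2 (22.6%, beside 27.2% of all genes). In Myc1, 38 of 53 were above 0 (median 0.13), and 1 (1.89%, beside 3.48% of all genes) reached that p. It was KDELR3, a receptor that returns ER proteins from the Golgi, with 82.5 to 119.9 CPM in Myc1, against 42.4 to 69.6 CPM in Scr1 (0.74 ± 0.24, SE). That count was 0 when Myc1 replicate 3 was left out (beside 1.27% of all genes). It was 3 (5.66%) when Scr1 replicate 2 or replicate 3 was left out, beside 5.67% and 6.92% of all genes.

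The wider ATF4 list has 57 symbols, for serine and amino acid synthesis, tRNA charging, eIF2 control and stress targets that other pathways also drive. Of these, 54 were tested in experiment 2, where 8 were higher and 3 lower in libraries labelled Myc2 at an unadjusted limma p under 0.05 (20.4%, beside 13.4% of all genes), with a median of 0.03. None passed the adjusted test. CEBPB, a partner of ATF4, had 81.4 to 102 CPM in libraries labelled Myc2, against 28.04 to 63.7 CPM in Scr2 (log2 difference 1.21 ± 0.22, SE). DDIT4, an inhibitor of mTORC1 also induced by hypoxia, had 396 to 893 CPM, against 157 to 376 CPM in Scr2 (1.42 ± 0.29, SE). VEGFA, an angiogenic factor likewise induced by hypoxia, had 324 to 2484 CPM, against 66.7 to 335 CPM in Scr2 (2.80 ± 0.61, SE). STC2, a secreted glycoprotein, had 2.496 to 52.3 CPM, against 0.158 to 1.69 CPM in Scr2 (3.95 ± 0.88, SE), and in experiment 1 it had 1.02 to 2.58 CPM in Myc1, against 0.0333 to 1.23 CPM in Scr1. TNFRSF10B, the death receptor DR5 (0.81 ± 0.21, SE), GPT2, a mitochondrial alanine transaminase (0.57 ± 0.18, SE), and KLHL24 (0.87 ± 0.29, SE) were also higher. SARS, which charges tRNA with serine, was lower (-0.52 ± 0.18, SE). STC2 was the 1 gene of 53 at that p in experiment 1 (1.89%, beside 3.48% of all genes), with a median of 0.01 over the list. With Myc1 replicate 1 or 3 left out the count was 0, beside 3.60% and 1.27% of all genes. With Myc1 replicate 2 or Scr1 replicate 1 left out it was 2 (3.70% and 3.77%), beside 4.64% and 3.15% of all genes.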

How the data were processed

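Per the labels' protocols, RNA of the 16 tumours had an integrity number of 7.2 or more and was read on an Illumina NextSeq instrument. Builds hg19 and mm10 stand in the submitters' processing notes, with no role given, beside the tools Picard, STAR 2.6.0b and bcl2fastq 2.20.0. Which gene counter and normalization were used is not given in the sources used here. For each experiment the authors deposited 1 table of log2 CPM values. Within a table the values nearly share 1 distribution. Of the sorted values, 58.5% in Scr1 replicate 3 and 74.8% to 88.6% in the other libraries lay within 0.01 log2 of the median over libraries. The lowest value was -2.54 log2 CPM in Scr1 replicate 3 and -3.38 in Scr2 replicate 4, and reached -4.91 and -5.16 in other libraries of experiments 1 and 2. The linear values sum to 998367 to 998392 in experiment 1 and 995054 to 995076 in experiment 2. Read counts were not used here, and library sizes were estimated from the spacing of low values.

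The deposited log2 values were tested with limma 3.58.1 (R 4.3.3), with trend and robust settings, on genes at 1 CPM or more in 3 (siRNA 1), 4 (siRNA 2) or 3 (joint fit) libraries. P-values were adjusted by Benjamini-Hochberg over all genes tested, at 0.05, and differences are Myc minus Scr. The 2 tables were fitted apart, and the joint fit over all 4 groups used only within-table differences. Errors are SE. Limma p-values set a difference against the spread between mice within groups, with each gene's variance moderated towards a trend over all genes. MYC was tested by exact permutation of labels (35 and 126 arrangements). A check of the fit on simulated data gave every gene the same spread between libraries before reads were drawn. In the 2 experiments the spread differed between genes, with a median pooled SD of 0.37 and 0.38 and a 90th percentile of 0.74 and 0.81. No conclusion about these data is therefore drawn from that check. Genes named by rule are those at an unadjusted p under 0.05, 8 regulators whatever their values, and up to 8 genes of each wider list by smallest p. Other genes given with their values, such as PDIA3, SYVN1 and VLDLR, fall outside that rule. They and the genes named for individual libraries were chosen after their values were seen. The 37 genes and all lists were chosen with earlier results of these data known. Alternatives changed the filter, the offset added before logs, the centring, the weights, the limma settings and the libraries.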

Additional observations from a re-analysis of the deposited data

Results flagged for a closer look

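Of 111 groups of 4 or 5 libraries of 1 gene, 12 held a library whose gap to its nearest neighbour was a large share of the group's range by Dixon's test, which chance gives in about 1 of 20 groups. Genes of a shared list are not independent in this count. Myc2 replicate 3 was the highest in 6 of them, with gaps of 0.867 of the range for ASNS, 0.797 for SLC7A11, 0.791 for SLC7A5, 0.811 for WARS, 0.765 for XPOT and 0.766 for CHAC1. On the log2 CPM scale ASNS was 6.93 there, and 4.42 in the next library labelled Myc2. Scr2 replicate 1 was the highest of its group for SLC7A5 (0.877), and Scr2 replicate 3 for CALR (0.845). Myc2 replicate 5 was the lowest for ERN1 (0.867), with 3.5 log2 CPM, and 4.21 in the next library. In experiment 1, Scr1 replicate 4 was the lowest for HSP90B1 (0.849) and PDIA3 (0.862). The shallow Scr1 replicate 3 was the lowest for SLC7A11 (0.883). The Myc1 group, with 3 libraries, was not examined in this way.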

How the results depend on the processing

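The number of the 37 genes past an adjusted p of 0.05 was 0 in both experiments and in the difference of effects under every setting tried. With limma without trend and robust settings, 3 genes in place of 5 reached an unadjusted p under 0.05 in experiment 2. Those 3 are 8.11% of 37, beside 12.4% of all genes. The ER-arm median of experiment 2 (0.33) was 0.23 with array weights and 0.19 without Scr2 replicates 1 and 4, the ATF4-arm median (0.00403) was 0.33 without those 2 libraries, and the ATF4 difference (-0.00313) turned to 0.16 and 0.33 under those settings. Without Scr2 replicates 1 and 4, 1 gene in place of 2 reached that p in the difference of effects (2.70%, beside 1.46% of all genes). Leaving out 1 library in turn gave 0 to 3 genes at an unadjusted p for siRNA 1, 3 to 10 for siRNA 2 and 1 to 3 for the difference. ER-arm medians ranged over 0.00843 to 0.20 for siRNA 1 and 0.26 to 0.36 for siRNA 2, and ATF4-arm medians over -0.22 to 0.08 and -0.27 to 0.22. When 1 library was left out, 19 of 37 log2 differences changed sign for siRNA 1 (10 of 22 in the ER arm, 9 of 15 in the ATF4 arm) and 16 of 37 for siRNA 2 (4 of 22 and 12 of 15). Among the 8 regulators and the genes at an unadjusted p they were, for siRNA 1, HSPA5 (-0.10 to 0.35), ATF6 (-0.0864 to 0.15), DDIT3 (-0.45 to 0.14), ERN1 (-0.30 to 0.14), ATF4 (-0.32 to 0.26) and PPP1R15A (-0.0489 to 0.52). For siRNA 2 they were ATF4 (-0.16 to 0.22) and DDIT3 (-0.0361 to 0.49). With 1 library left out, the siRNA 2 differences were 0.80 to 1.15 for ERN1, 0.43 to 0.58 for HSPA5, 0.95 to 1.35 for PPP1R15A, 0.38 to 0.70 for XBP1 and 0.39 to 0.60 for CALR. The causes were not tested. No paired analysis was possible because each library came from its own mouse and the labels give the groups no shared replicate numbers. CHAC1 and SLC7A11 levels near 1 CPM limit precision, as does the estimated depth of Scr1 replicate 3.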
